A study of Homo sapiens with 6 samples.

Results

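The AP-1 family was examined in NALM6 cells, an established human line of B cell precursor acute lymphoblastic leukemia. The 10 genes followed were FOS, FOSB, FOSL1, FOSL2, JUN, JUNB, JUND, ATF3, BATF and MAFF, chosen by name, matched by symbol in the deposited expression table and by Ensembl identifier in the deposited count table. They are 10 of the 57905 genes counted, of which 16622 had enough reads to be tested, 9 of the 10 among them. RNA-SEQ libraries came from 3 samples treated with the solvent DMSO and 3 treated with 500 nM of THZ1, a covalent inhibitor of the kinase CDK7, each for 24 h. The comparison asks which transcripts differ between samples treated with THZ1 and with DMSO, and CDK7 activity was not measured by these libraries. The labels name no engineered allele, and they do not say whether the 3 samples of a group were separate cultures, so p-values measure only the spread between these samples.

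AP-1 is a dimeric transcription factor. FOS and JUN proteins pair through a leucine zipper and grip DNA with the basic region beside it, JUN proteins can pair with each other while FOS proteins cannot, and ATF3, BATF and MAFF belong to neighbouring branches of the same basic leucine zipper class. FOS, FOSB, JUN, JUNB and ATF3 are classical immediate early genes, which are transcribed within minutes of a growth factor or stress signal without new protein synthesis, and whose transcripts are short-lived. In B cell precursors the family lies downstream of receptor and MAP kinase signaling.

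Total counts were 11015480 to 11164840 in the DMSO libraries and 7876402 to 8314306 in the THZ1 libraries. Counts were scaled by TMM factors and given as CPM, the count scaled for library size. A level of 3 counts, taken as the detection floor, corresponds to at most 0.253 CPM in a DMSO library and 0.415 CPM in a THZ1 library. TMM scaling holds the bulk of genes level and no spike-in was used here, so each change is relative to the other transcripts of the library. In bulk RNA, fewer cells of a type and less RNA per cell cannot be told apart. The 12 B-precursor markers were tested and present, with a summed level of 4133 to 4269 CPM under DMSO and 2192 to 2257 CPM under THZ1, 2 being higher and 9 lower. Of all protein-coding genes tested, 36.3% were higher and 47.6% lower at the same threshold. The 7 T-cell markers stayed too low to be tested, at summed levels of at most 0.338 CPM under DMSO and 1.94 CPM under THZ1, CD8A being at 0 in every library. The 7 myeloid markers summed to 12.9 to 14.6 CPM under DMSO and 20.8 to 22.2 CPM under THZ1, CD14 going from 0.636 to 8.71 CPM and CD33 from 9.57 to 2.19 CPM. The 6 erythroid and stromal markers went from 11.6 to 12.98 CPM under DMSO to 19.1 to 21.04 CPM under THZ1. COL1A1 rose from 3.71 to 15.7 CPM and PDGFRB fell from 8.16 to 4.002 CPM. The part of these other-lineage transcripts in the AP-1 values was not tested.

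The stretches before the start sites of 5 members are printed because they hold letters of classical promoter elements. They are RefSeq promoter windows (250 bases before to 50 after the start, table build GRCh38.p14) that were placed on GRCh37, the build of the files, by exact match, and only the 220 bases before the start are shown, 5′ to 3′ on the strand of the gene. Capitals mark the TATA box TATAAA in FOS, FOSB and JUNB, the AP-1-like octamer TGACATCA in JUN and the cAMP response element TGACGTCA in JUND.
FOS (chr14:75745311-75745530, plus strand): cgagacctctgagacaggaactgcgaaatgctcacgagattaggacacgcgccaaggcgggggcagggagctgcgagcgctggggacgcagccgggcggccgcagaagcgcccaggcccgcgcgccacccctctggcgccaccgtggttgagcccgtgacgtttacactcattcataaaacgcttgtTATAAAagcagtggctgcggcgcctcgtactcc
FOSB (chr19:45971034-45971253, plus strand): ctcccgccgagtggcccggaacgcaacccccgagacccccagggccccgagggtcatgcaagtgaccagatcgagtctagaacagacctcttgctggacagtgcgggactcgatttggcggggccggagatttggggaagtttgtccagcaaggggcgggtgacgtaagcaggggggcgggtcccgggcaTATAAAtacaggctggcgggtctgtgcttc
JUNB (chr19:12902080-12902299, plus strand): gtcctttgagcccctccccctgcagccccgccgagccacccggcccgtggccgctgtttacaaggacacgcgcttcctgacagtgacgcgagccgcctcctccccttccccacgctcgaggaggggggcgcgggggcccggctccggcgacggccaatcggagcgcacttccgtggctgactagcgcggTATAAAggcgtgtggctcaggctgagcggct
JUN (chr1:59249720-59249939, minus strand): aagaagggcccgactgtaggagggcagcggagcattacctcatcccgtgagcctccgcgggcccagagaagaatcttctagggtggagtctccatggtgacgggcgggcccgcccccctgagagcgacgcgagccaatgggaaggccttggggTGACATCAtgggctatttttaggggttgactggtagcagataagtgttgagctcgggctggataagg
JUND (chr19:18392433-18392652, minus strand): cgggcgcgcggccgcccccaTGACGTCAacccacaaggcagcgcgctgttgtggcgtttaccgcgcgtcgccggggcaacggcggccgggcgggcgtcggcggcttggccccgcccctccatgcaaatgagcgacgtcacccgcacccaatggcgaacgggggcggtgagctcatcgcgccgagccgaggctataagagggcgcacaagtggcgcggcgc

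Windows were found for 9 members, 11 windows in all, and both strands were searched. TATAAA began 33 bases before the start of FOS, 30 before that of FOSB and 31 before that of JUNB, and was held by 11.5% of the 35116 windows in the table. A TATAAA also stood far out, 230 bases before the start, in the second of the 2 windows of ATF3. This second window lies inside the annotated span of ATF3, and start sites with no window in the table were not searched. TGACATCA was found in JUN, 67 bases before the start, and in the first window of ATF3, 123 bases before it, against 2.61% of all windows. TGACGTCA was found in JUND, 200 bases before the start, and in MAFF, 54 bases before it, against 1.85% of all windows. The TPA response element TGACTCA, the AP-1 site proper, was present only in FOSL2, just past the start, against 4.95% of all windows. The CArG box, the core of the serum response element, was found in none of the members' windows and in 1.29% of all windows. The windows reach only 250 bases before the start, so a CArG box farther out, in FOS or another member, could not be seen. The GC box GGGCGG was found in 8 members against 45% of all windows. These matches describe letters in a window and overlap none of the other motifs, and no binding was measured.

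The members are mostly compact genes. JUN, JUNB and JUND each have a single exon in the canonical transcript, FOS, FOSB, FOSL1, FOSL2 and ATF3 have 4, and BATF and MAFF have 3. Their spans run from 1830 bp for JUNB (chromosome 19, 12902300 to 12904129, GRCh37) to 55444 bp for ATF3 (chromosome 1, 212738676 to 212794119), and 7 of the 10 are shorter than the median of 20995 bp over the genes tested. The other 8 lie at 75745529 to 75748933 on chromosome 14 for FOS, 45971253 to 45978437 on chromosome 19 for FOSB, 65659520 to 65668044 on chromosome 11 for FOSL1, and 28615315 to 28640184 on chromosome 2 for FOSL2. JUN lies at 59242517 to 59249720 on chromosome 1, JUND at 18390504 to 18392432 on chromosome 19, BATF at 75988798 to 76013336 on chromosome 14, and MAFF at 38596774 to 38612514 on chromosome 22. Coordinates are those of GENCODE 44 mapped to GRCh37.

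Under THZ1, the transcripts of FOS, FOSB, FOSL1, JUN, JUNB and ATF3 rose 18.6-fold or more, those of FOSL2 2.54-fold and those of JUND 2.44-fold, and MAFF rose in the counts but not in the second deposited table. BATF was too low to be tested. Among all genes tested, 1098 had a larger fitted rise than ATF3, 1252 than FOSB, 1413 than JUN and 1496 than JUNB. Larger rises than those of FOSL2, JUND and MAFF were fitted for 4353, 4467 and 5430 genes. The 9 genes tested were called higher and none lower in edgeR's quasi-likelihood test, adjusted by Benjamini-Hochberg over the genes tested, where 43.5% of those genes were called higher and 41.1% lower. Of the protein-coding genes tested, 36.3% were called higher and 47.6% lower. At a log2 fold change of at least 1.5 the background was 24.6% higher and 12.9% lower, and 6 of the members reached it. FOS and FOSL1 passed the filter on low counts only through their THZ1 libraries and so had to differ, which is why the count over the 9 genes is given as a description.

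**Figure D1:**
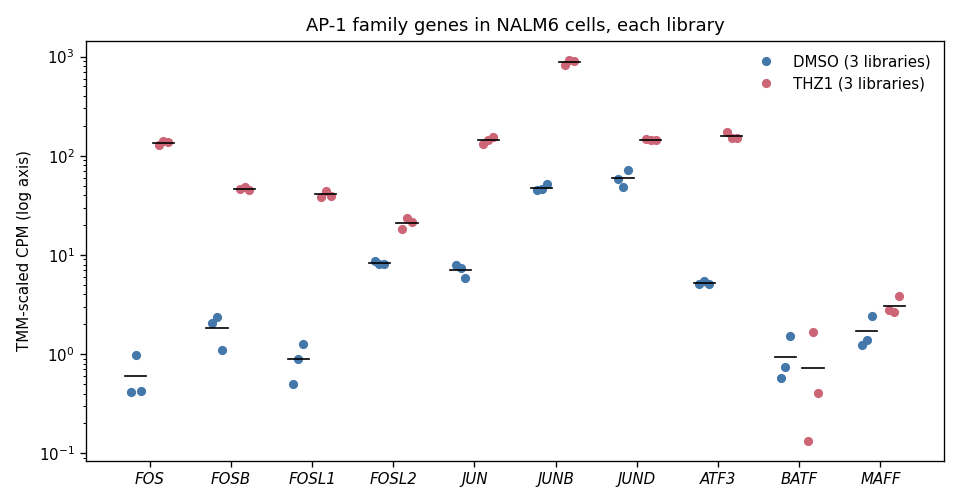
TMM-scaled CPM on a log axis for each of the 10 AP-1 genes, with 3 DMSO libraries (blue), 3 THZ1 libraries (red) and black lines at the group means. The THZ1 points sit above the DMSO points in every gene but BATF, where they overlap, and JUNB is the highest gene under THZ1 at 814 to 932 CPM.

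Among the FOS proteins, which bind DNA only with a partner, FOS itself was at 0.413, 0.984 and 0.422 CPM in the DMSO libraries, the counts being 5, 12 and 5, and at 128, 139.8 and 137 CPM in the THZ1 libraries. The 3 DMSO values lie close to the detection floor and the 3 THZ1 values far above them. The means were 0.606 ± 0.327 and 135 ± 6.01 CPM (SD, n = 3), a fitted log2 fold change of 7.76 (SE 0.16), given as a description with no p because FOS entered the test through its THZ1 libraries. With so few reads under DMSO the size of this fold rests on 5 to 12 counts per library, and the log2 fold change ran from 7.53 to 8.27 as each library was left out.

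FOSB, which is best known for its long-lived truncated form in neurons, was at 2.07, 2.38 and 1.10 CPM under DMSO and at 46.0, 48.2 and 45.3 CPM under THZ1. No library of one group came near the other group. Its log2 fold change was 4.64 (SE 0.17, adjusted p = 6.88e-22, edgeR), or 25.2-fold between the group means. FOSL1, which encodes FRA1, was at 0.496, 0.902 and 1.27 CPM and then at 38.5, 44.3 and 39.7 CPM. This gene too moved from near the floor to a moderate level, with a fitted log2 fold change of 5.51 (SE 0.19) that is likewise a description with no p. FOSL2, which encodes FRA2, already stood at 8.76, 8.11 and 8.02 CPM and reached 18.4, 23.7 and 21.3 CPM. Its libraries were also separate by treatment, but the rise was small beside those of the other FOS genes, at 1.34 on the log2 scale (SE 0.14, adjusted p = 3.79e-10, edgeR).

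Among the JUN proteins, JUN, the founding partner of FOS and the main substrate of the JNK kinases, was at 7.85, 7.38 and 5.91 CPM under DMSO and at 133, 146 and 156 CPM under THZ1. The groups did not overlap, as was the case with THZ1 above DMSO for 43.4% of the genes tested and below it for 41.3%. The log2 fold change was 4.36 (SE 0.11, adjusted p = 6.04e-26, edgeR). JUNB, a JUN protein that often restrains JUN and is important in lymphoid cells, was already plentiful at 45.0, 45.9 and 51.5 CPM and reached 814, 932 and 897 CPM. It rose 18.6-fold between the means of 47.5 ± 3.52 and 881 ± 60.4 CPM (SD, n = 3), a log2 fold change of 4.21 (SE 0.08, adjusted p = 1.52e-28, edgeR). JUND, the JUN gene that resting cells express broadly, was at 58.3, 48.8 and 72.5 CPM and then at 147, 145 and 146 CPM. The DMSO libraries of JUND scattered more than its THZ1 libraries, with SDs of 11.9 and 0.858 CPM, and the group means were 59.9 and 145.9 CPM, a log2 fold change of 1.29 (SE 0.09, adjusted p = 5.87e-14, edgeR). HOOK2 is annotated across JUNB on the opposite strand, ERCC1 across FOSB and PLA2G6 across part of MAFF, and reads of these pairs may be shared.

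ATF3, a stress-induced factor of the ATF branch that pairs with JUN proteins and can repress transcription, was at 5.13, 5.41 and 5.15 CPM under DMSO and at 173, 150.3 and 152 CPM under THZ1. The 3 DMSO libraries were nearly alike and each THZ1 library was far above them. The log2 fold change was 4.92 (SE 0.11, adjusted p = 1.81e-27, edgeR), or 30.3-fold between the means.

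BATF, a lymphoid factor that works with JUN proteins and IRF4, had counts of 7, 9 and 18 under DMSO and 1, 12 and 3 under THZ1, that is 0.579, 0.738 and 1.52 CPM against 0.131, 1.66 and 0.401 CPM. The groups overlap, and a difference was not detectable at this depth. In the fit with no filter, chosen for BATF after seeing the data, its log2 fold change was −0.47 (SE 0.53, adjusted p = 0.443, edgeR). MAFF, a small MAF protein that lacks a transactivation domain, was at 1.24, 1.39 and 2.45 CPM under DMSO and at 2.76, 2.63 and 3.88 CPM under THZ1. Its highest DMSO library lies just under its lowest THZ1 library, and the log2 fold change was 0.87 (SE 0.32, adjusted p = 0.0144, edgeR). This call was lost on leaving out DMSO replicate 1 (adjusted p = 0.0829), DMSO replicate 2 (adjusted p = 0.0526) or THZ1 replicate 3 (adjusted p = 0.109), and with library sizes alone in place of TMM factors (adjusted p = 0.0726), edgeR being used in each case.

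The second deposited table holds log2 FPKM, a level per length and depth, which allows the members to be ranked against each other. The highest value in that table was 14.78 in each of the 3 DMSO libraries and 14.64 in each of the 3 THZ1 libraries, so libraries of one treatment appear to have been set to a common scale, and differences between treatments in it are given beside the counts only. On the FPKM scale the rises of FOSB, FOSL2, JUN, JUNB, JUND and ATF3 were called as well by limma, at 0.51 for FOSL2 to 4.17 for ATF3 in log2(FPKM + 1). FOS and FOSL1 rose by 5.68 and 4.24 on this scale, again given as a description with no p. Adding 1 shrinks the differences of genes with low levels on this scale. MAFF went the other way, from 1.503 ± 0.445 to 0.654 ± 0.256 FPKM (SD, n = 3), a difference of −0.59 on the log2 scale (adjusted p = 0.0246, limma). BATF was 3.71 ± 1.63 FPKM under DMSO and 1.27 ± 1.70 FPKM under THZ1, and its difference of −1.25 did not pass the test (adjusted p = 0.0628, limma).

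**Figure D2:**
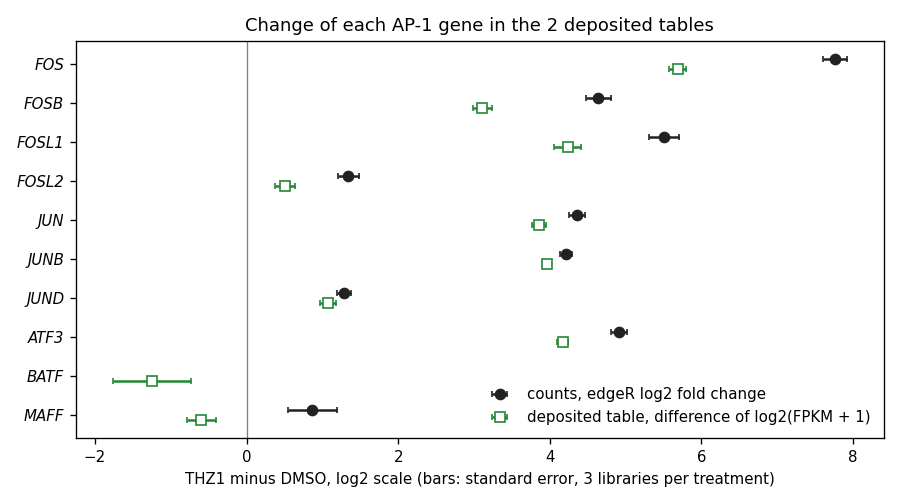
THZ1 minus DMSO on the log2 scale for each AP-1 gene, as the edgeR log2 fold change of the counts (black circles, 9 genes) and as the difference of deposited log2(FPKM + 1) values (green squares, 10 genes), with bars of 1 standard error and 3 libraries per treatment. Both scales show a rise for 8 genes and part for MAFF, at 0.87 in the counts and −0.59 in the FPKM values.

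By FPKM level, JUND and JUNB led under DMSO at 87.4 ± 13.9 and 73.0 ± 3.64, and their libraries overlapped. JUN at 6.88 ± 0.724, ATF3 at 4.56 ± 0.0891 and FOSL2 at 4.16 ± 0.196 followed without overlap between neighbours. From FOSL2 down through BATF, FOSL1, FOSB, MAFF and FOS, each gene overlapped the next, with FOS last at 1.13 ± 0.269 FPKM. Under THZ1 the order was JUNB at 1153 ± 59.0, JUND at 184 ± 0.654, and then JUN at 113 ± 8.59, FOS at 108 ± 4.49 and ATF3 at 99.2 ± 7.83, of which neighbours overlapped. FOSL1 at 55.7 ± 4.02, FOSB at 21.4 ± 0.589 and FOSL2 at 6.39 ± 0.970 each stood apart from the next, and BATF and MAFF overlapped at the bottom. By mean, FOS went from the tenth place to the fourth in the FPKM levels, beside JUN and ATF3, and FOSL2 from the fifth to the eighth.

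Summed over the 10 genes, the family's level was 180.0, 172 and 206 FPKM under DMSO and 1665, 1800 and 1760 FPKM under THZ1, 9.36 times as much between the means, against 11.2 times from counts per kilobase of exon. JUND made up 46.8% ± 3.35 of the sum under DMSO and 10.6% ± 0.388 under THZ1, while JUNB went from 39.4% ± 2.68 to 66.2% ± 0.779 (SD, n = 3). Every library of a treatment showed this order, with JUND above JUNB in each DMSO library and JUNB at 65.3% to 66.8% in each THZ1 library. FOS went from 0.615% to 6.19%, JUN from 3.74% to 6.47%, ATF3 from 2.46% to 5.72% and FOSL1 from 1.10% to 3.20%, whereas FOSL2, although its level rose, went from 2.25% to 0.366%.

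**Figure D3:**
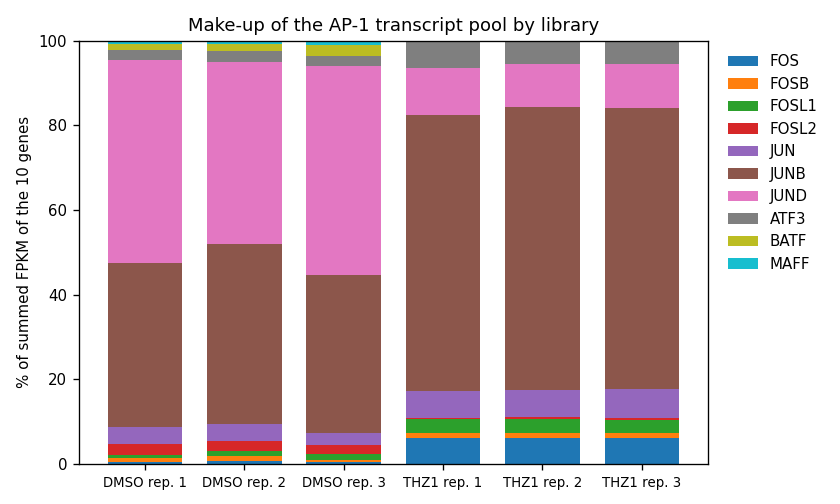
Share of each AP-1 gene in the summed FPKM of the 10 genes (percent) in each of the 6 libraries, as stacked bars. JUND and JUNB fill most of the DMSO bars in like parts, and JUNB alone fills about 66% of the THZ1 bars.

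Ratios of members within a library do not depend on the scaling. The log2 ratio of JUND to JUN, from counts with 0.5 added, was 2.89, 2.72 and 3.61 under DMSO and 0.14, −0.01 and −0.10 under THZ1, and that of FOSL2 to FOSL1 was 4.03, 3.11 and 2.62 and then −1.06, −0.90 and −0.90. Both ratios were separate by treatment and moved by −3.06 and −4.21. For JUND to JUN the two-sided exact permutation p was 0.1, the smallest that 3 against 3 libraries can give. FOSB to FOS moved by −3.12, from 1.58 ± 0.547 to −1.53 ± 0.0577 (SD, n = 3). FOSL1 and FOS passed the filter on low counts only through their THZ1 libraries. The ratios of FOSL2 to FOSL1 and of FOSB to FOS are therefore descriptions with no p. JUNB to JUN overlapped between treatments, at 2.51, 2.63 and 3.11 under DMSO and 2.61, 2.68 and 2.52 under THZ1 (difference −0.15, exact permutation p = 0.7).

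Around the family, 4 lists of genes were followed, and for each the counts stand beside the 43.5% higher and 41.1% lower of all genes tested and their median log2 fold change of 0.03. The listed genes are all protein-coding, and of the protein-coding genes tested 36.3% were higher and 47.6% lower. Of the 25 other basic leucine zipper genes that share partners or sites with AP-1, 22 were tested, 12 being higher and 10 lower, with a median log2 fold change of 0.45. MAFA, a large MAF factor of beta cells, had counts of 1, 2 and 1 under DMSO and 93, 74 and 90 under THZ1, which is at least 46.2-fold higher in CPM. NFE2, the large partner of small MAF proteins in megakaryocytes, had 0, 0 and 2 counts against 22, 29 and 37, at least 15.9-fold higher. BATF3, the close relative of BATF, had 58, 55 and 73 counts under DMSO and 7, 9 and 5 under THZ1. MAFA and NFE2 passed the filter on low counts only through their THZ1 libraries and BATF3 only through its DMSO libraries, so these 3 are given with no p. BACH2, a B cell repressor that pairs with small MAF proteins and competes for AP-1-like sites, fell from 192 ± 20.4 to 51.6 ± 2.74 CPM (log2 fold change −1.90, adjusted p = 1.84e-19, edgeR). Named after their values were seen, the other small MAF genes MAFG and MAFK rose by 3.34 and 1.23 on the log2 scale. JDP2, a repressive partner of JUN proteins, fell by 0.93 on that scale, and ATF4, the effector of the integrated stress response, rose by 1.20.

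Of 30 kinases and factors upstream of AP-1, 29 were tested and 8 were higher, 18 lower and 3 not called, with a median log2 fold change of −0.55. With library sizes alone in place of TMM factors, 2 of them were higher. SRF, the factor that binds the serum response element of FOS, rose from 76.9 ± 4.75 to 183 ± 11.8 CPM (log2 fold change 1.25, adjusted p = 4.94e-16, edgeR). MAPK11, a p38 kinase, had 68, 68 and 57 counts and then 93, 61 and 96 (log2 fold change 1.07, adjusted p = 4.68e-06, edgeR). MAP2K6, an activator of the p38 kinases, went from 8.61 ± 0.771 to 1.12 ± 0.130 CPM, having passed the filter only through its DMSO libraries, and MAPK9, which encodes JNK2, fell from 45.6 ± 0.773 to 9.69 ± 1.44 CPM (log2 fold change −2.23). These are transcript levels, and kinase activity was not measured by these libraries.

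Of 17 genes for the turnover of AP-1 transcripts and proteins and for cofactors, all 17 were tested, 11 being higher and 6 lower, with a median log2 fold change of 0.99. ZFP36L1 and ZFP36, which encode proteins that bind AU-rich elements and speed the decay of transcripts such as FOS, rose from 127 ± 7.65 to 1932 ± 71.9 CPM and from 29.7 ± 3.32 to 273 ± 7.14 CPM, by 3.93 and 3.20 on the log2 scale. HNRNPD, which encodes the AU-rich element binding protein AUF1, fell from 735 ± 25.4 to 158 ± 7.59 CPM (log2 fold change −2.22, adjusted p = 3.89e-23, edgeR). DET1, part of a ubiquitin ligase that targets JUN, had 56, 55 and 52 counts and then 13, 15 and 5, and passed the filter only through its DMSO libraries. IRF4, the partner of BATF, named after its value was seen, rose by 1.86 on the log2 scale.

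Of 28 genes often listed as AP-1 targets, 15 were tested, 8 being higher, 5 lower and 2 not called, the median log2 fold change being 0.60. The count of 5 lower genes was 3 without DMSO replicate 1 or without DMSO replicate 3, and 6 further genes stood at 0 in every library. TNF, an inflammatory cytokine, rose from 17, 16 and 26 counts to 268, 225 and 250 (log2 fold change 4.34, adjusted p = 2.29e-20, edgeR). IL11, a cytokine of the IL6 family, had 2, 5 and 5 counts and then 30, 17 and 18, and passed the filter only through its THZ1 libraries, as did LIF. It was not called in the FPKM values (adjusted p = 0.0589, limma). VIM, the intermediate filament vimentin, fell by 0.80 on the log2 scale. MMP9, a matrix protease, had 30, 37 and 41 counts and then 13, 8 and 17, and passed the filter only through its DMSO libraries. Its fitted log2 fold change of −0.81 is therefore a description with no p. The call of MMP9 was also lost with upper quartile factors, with DESeq2, without DMSO replicate 3 or without THZ1 replicate 2. MMP9 is among the 5 genes counted as lower, and IL11 and LIF are among the 8 counted as higher. Named after their values were seen, HBEGF rose by 2.78 and VEGFA by 1.88 on the log2 scale.

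**Figure D4:**
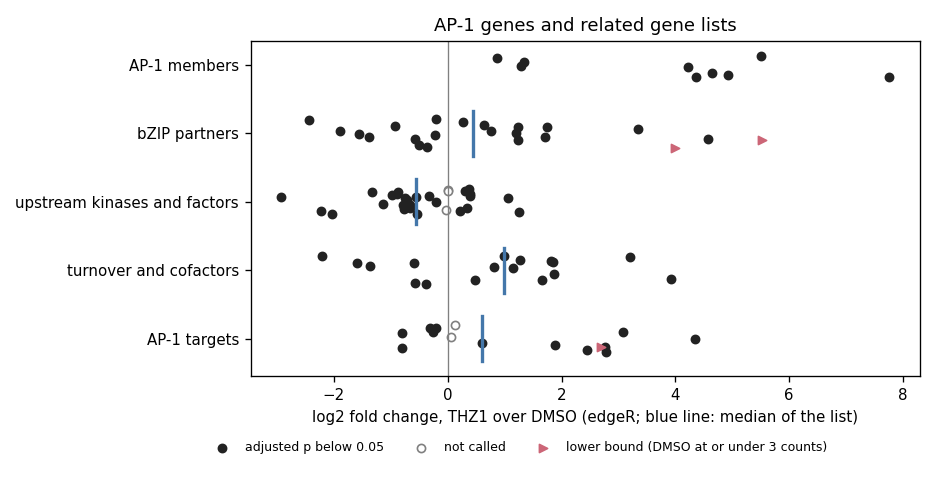
Log2 fold change of each tested gene in the AP-1 family and in the 4 related lists, with filled circles called, open circles not called, arrows at the lower bound for genes at or under 3 counts in every DMSO library, and blue lines at the list medians (0.45, −0.55, 0.99 and 0.60 from top to bottom). The AP-1 genes lie right of 0, and each related list has called genes on both sides. FOS and FOSL1 passed the filter on low counts only through their THZ1 libraries, and MAFF fell in the FPKM values. The members and lists were chosen with earlier results of these data known, so the figure is a description.

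The neighbourhood of the members was read from the same fit. The annotation and the strand setting of the authors' counting are not given in the sources used here, so reads of overlapping genes may be shared. ERCC1, a DNA repair gene annotated across FOSB on the opposite strand, fell by 0.62 on the log2 scale. HOOK2, whose annotated span covers JUNB on the opposite strand, went from 591, 507 and 685 counts to 2070, 2344 and 2316 (log2 fold change 2.61, adjusted p = 4.61e-22, edgeR). PLA2G6, which overlaps MAFF on the opposite strand, went from 208, 203 and 199 counts to 60, 76 and 55 (log2 fold change −0.98, adjusted p = 7.55e-07, edgeR). The overlapping FOSL2-AS1, RN7SL512P in ATF3 and 1 further long noncoding gene in FOSL2 were too low to be tested.

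The 22 tested neighbours, counting the overlapping genes and the nearest protein-coding gene on each side once, had 8 higher and 9 lower, with a median log2 fold change of 0.04, where 36.3% of protein-coding genes tested were higher and 47.6% lower. GARIN4, which begins 3697 bp past the end of ATF3 on the same strand, had 0 counts in the 3 DMSO libraries and 46, 47 and 43 in the THZ1 libraries, at least 24.5-fold higher. FLVCR2, 31627 bp past the end of BATF on the same strand, had 0 counts in the 3 DMSO libraries and 19, 20 and 16 in the THZ1 libraries, at least 9.91-fold higher, while BATF itself was at 1 to 18 counts in the 6 libraries. Split by side, a division made after the values were seen, 5 of 10 neighbours past the end were higher and 4 lower, and 2 of 10 before the start were higher and 4 lower. At a log2 fold change of at least 1.5, 4 of those past the end and 1 of those before the start were higher, against 24.6% of all genes tested. These 5, GARIN4, FLVCR2, IQCN, PRDX2 and BEST2, passed the filter on low counts only through their THZ1 libraries and so had to differ, and nothing is read from that count. IQCN, named after its values were seen, begins 5194 bp past the end of JUND on the same strand and had 4, 9 and 4 counts and then 151, 185 and 188. PRDX2, 3505 bp past the end of JUNB on the opposite strand, had 10, 6 and 3 counts and then 24, 30 and 40. BEST2, before the start of JUNB on the same strand, had 3, 0 and 2 counts and then 88, 75 and 113, at least 49.6-fold higher.

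**Figure D5:**
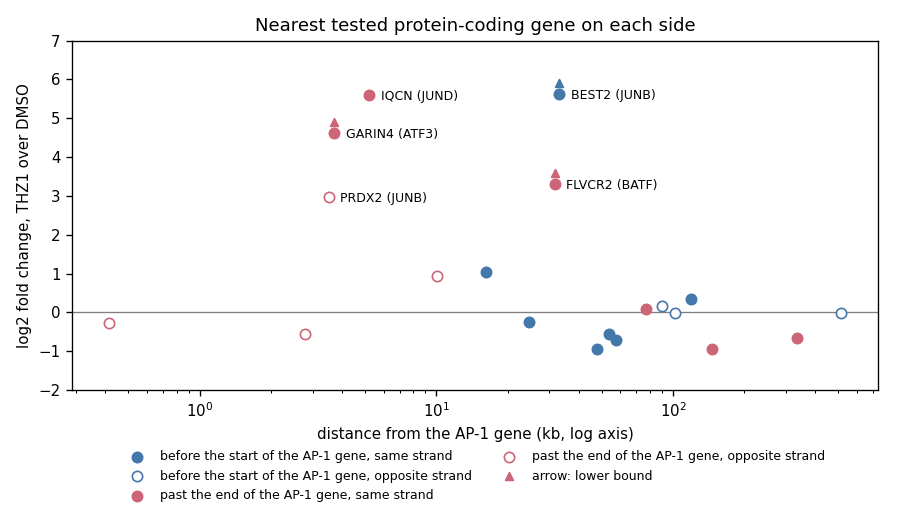
Log2 fold change of the nearest tested protein-coding gene on each side of each AP-1 gene against its distance (kb, log axis), with filled points on the same strand, open points on the opposite strand and arrows above lower bounds. The named genes past the end (GARIN4, IQCN, PRDX2, FLVCR2) and BEST2 before the start lie above 1.5, and the other neighbours lie between −0.93 and 1.04.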

How the data were processed

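Raw counts per gene, deposited by the authors for 3 DMSO and 3 THZ1 libraries, were made by trimming (cutadapt), mapping to GRCh37 with STAR and counting with HTSeq, per the labels and the methods. The annotation, strand setting and counter version are not given in the sources used here. A second table deposited by the authors holds log2 FPKM by RSEM, read as log2(FPKM + 1), for 16730 genes, whose columns of log2 fold change, p-value and FDR are the authors' own comparison and were not used.

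Counts were filtered with filterByExpr (at least 10 in enough libraries and 15 in total), scaled by TMM, and entered into edgeR's quasi-likelihood test (two-sided, Benjamini-Hochberg over 16622 genes, threshold 0.05). The members and lists were chosen with earlier results of these data known. Beside the members, the rule named the 2 largest rises and falls called in each list at a mean of at least 1 CPM, tested overlapping genes, and the 2 neighbours changing most. Bounds used 3 counts per library, and counting limits cover counting error only. Levels between genes were compared per length. Samples of a group differed by more than counting noise. The level of 1 marker gene is not reported here.

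Alternatives were RLE, upper quartile or no scaling factors, DESeq2, stricter and no filters, a replicate block, each library left out, and limma on FPKM with 1 or 0.1 added. In simulated counts, 188 of 200 changed genes were called, with 12 unchanged genes called of 16229 in the fit. The 200 were drawn from well-counted genes, as many raised as lowered, and all other genes were left unchanged. The simulation therefore tests neither the scaling of these libraries nor genes near the floor. R 4.3.3, edgeR 4.0.16, limma 3.58.1, DESeq2 1.42.0, Python 3.11.15, numpy 2.4.6, pandas 2.3.3, scipy 1.17.1 and matplotlib 3.10.9 were used.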

Additional observations from a re-analysis of the deposited data

How the results depend on the processing

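FOSB, FOSL2, JUN, JUNB, JUND and ATF3 kept their direction and their call in every alternative run, and FOS and FOSL1, which passed the filter only through THZ1, are left out of this statement. For the members, 135 of 142 values kept both, 4 lost the call and 3 reversed, and the last 7 were those of MAFF, which is 0.62 with library sizes alone and 0.66 to 1.20 with a library left out. MAFF reversed with limma on FPKM, at −0.59 with 1 added (with or without the filter) and −1.11 with 0.1 added, so that 1 member was then called lower. For the 30 named genes together, 446 of 460 values kept both. Both tallies include genes that passed the filter on low counts through 1 treatment only, FOS and FOSL1 among them. The named genes outside the family were mostly chosen for large called changes, so the tallies are a description.

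Upper quartile factors moved the median of all genes by 0.19 and library sizes alone by −0.25 on the log2 scale. The AP-1 targets called lower were 3 with RLE factors, 1 with upper quartile factors, 2 with DESeq2, 1 where every library needed 10 counts, and 3 to 5 with a library left out. The upstream genes called higher were 2 with library sizes alone and 4 with limma on FPKM, where 5 AP-1 targets and 5 neighbours were higher. Neighbours called higher were 5 also where every library needed 10 counts, a filter that left 7 members, which were called higher. Members called higher were 8 to 9 with a library left out.

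JUNB made up 67.4% of the family under THZ1 by counts per kilobase of exon. In the deposited log2(FPKM + 1) values the difference between FOSB and FOS moved by −2.57, and that between JUNB and JUN by 0.11, the reverse of its sign in the counts. Adding 1 shrinks such differences at low levels, as those of FOSB and FOS were under DMSO. Other causes were not tested.

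With the replicate number as a block, 9 members were higher and 0 lower, and 7181 genes were higher and 6786 lower against 7224 and 6826 without it. The numbers share no deviations (same-number correlations −0.00400, 0.000969 and 0.0206), so the samples were not treated as paired. FOS, FOSL1 and BATF under DMSO, and BATF under THZ1, have too few counts for a precise level.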
